A study of Mus musculus with 2 samples.

Results

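Transcripts of 10 receptors of feeding and energy balance were followed through single neurons of the newborn mouse hypothalamus: Mc4r, Npy1r, Lepr, Ntrk2, Cnr1, Gpr83, Glp1r, Htr2c, Insr and Igf1r. They were taken by name, and all 10 had a row among the 24905 genes of the merged table. Cells were profiled by Drop-seq, a droplet method that captures each cell's RNA on a barcoded bead and tags each captured molecule with a unique molecular identifier (UMI). There were 2 libraries of CD-1 mice, an outbred stock. The Sim1 heterozygous library came from Sim1-Cre;tdTomato+/-;Sim1+/- pups, and the control library from Sim1-Cre;tdTomato+/- pups. Both groups therefore carried the Cre driver and the red reporter, and they differed by the lost copy of Sim1. Each library pooled the hypothalami of 6 pups at postnatal days 1 to 4, and viable tdTomato-positive cells were sorted before capture. The reporter marks every cell in which Sim1-Cre was active at any time, so a sorted cell need not express Sim1 when captured. Each genotype has a single library, so every difference is one between these libraries, intervals cover counting error alone, and no p-value can be given.

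Sim1 is a transcription factor needed to form the paraventricular nucleus, where neurons read hunger and satiety signals, and mice with a single working copy overeat and become obese. Melanocortin peptides act there through Mc4r to limit feeding, neuropeptide Y acts through Npy1r to promote it, and serotonin (Htr2c), leptin (Lepr), GLP-1 (Glp1r), endocannabinoids (Cnr1) and BDNF (Ntrk2) feed into the same circuits. Insr and Igf1r bind insulin and insulin-like growth factors. Gpr83 is a G protein-coupled receptor for which the proSAAS peptide PEN has been proposed as ligand.

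The receptor genes lie on 8 mouse chromosomes (build mm10, GENCODE M21, whole gene spans including introns and untranslated regions). Gpr83 spans chr9:14860210-14870789 on the plus strand, Npy1r chr8:66697192-66706792 on the plus strand and Igf1r chr7:67952827-68233668 on the plus strand. Mc4r spans chr18:66857704-66860506 on the minus strand and Htr2c chrX:146962513-147197277 on the plus strand. Ntrk2, Glp1r, Htr2c and Insr overlap other annotated genes, none of which has a row in the table. Sequencing read the 3′ end of each captured molecule, and how well each gene was captured is unknown. Levels are therefore compared between cells for one gene and not between genes.

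After barcodes with under 300 genes were removed, 2454 Sim1 heterozygous and 2806 control cells remained, with medians of 1583 and 1772.5 UMIs. Of these, 2319 (94.5%) and 2739 (97.6%) passed as neuronal, with a UMI of at least 2 of 5 neuronal genes. No barcode sequence occurred in both libraries. Sim1 had 483 UMIs (91.4 counts per 1000000 UMIs, CPM) in Sim1 heterozygous neuronal cells and 731 UMIs (114 CPM) in control neuronal cells. Neurons were grouped by UMIs of 7 marker genes. At least 10 UMIs of Avp or Oxt and at least 2 of Crh or Trh marked hormone neurons, whose peptides are vasopressin, oxytocin, corticotropin-releasing hormone and thyrotropin-releasing hormone. At least 1 UMI marked cells of Otp, a homeobox factor of paraventricular neurons, of Foxb1, a forkhead factor known from the mammillary body, and of Emx2, another homeobox factor. Gates could overlap.

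The libraries were made up differently, and this bears on each receptor that follows a gate. Otp-gated cells were 425 (18.3%) of the Sim1 heterozygous and 813 (29.7%) of the control neuronal cells. Foxb1-gated cells were 1152 (49.7%) in the Sim1 heterozygous library and 909 (33.2%) in the control library. Emx2-gated cells were 151 (6.51%) in the Sim1 heterozygous and 156 (5.70%) in the control library. The Avp gate held 24 Sim1 heterozygous and 110 control cells, the Oxt gate 10 and 69, the Crh gate 40 and 43, and the Trh gate 46 and 67. Cells in no gate numbered 686 in the Sim1 heterozygous library (median 1058.5 UMIs) and 945 in the control library (median 1588 UMIs). UMIs of the factors were also found in glia-gated cells. Foxb1 was found in 17.0% of 47 Sim1 heterozygous and 23.5% of 34 control glial cells. Its shares of neuronal cells were 49.7% in the Sim1 heterozygous and 33.2% in the control library. Emx2 was found in 3 Sim1 heterozygous (6.38%) and 2 control glial cells (5.88%), close to its neuronal shares, and Otp in 2.13% of Sim1 heterozygous and 2.94% of control glial cells. The glial cells were shallower, with medians of 879 and 1236 UMIs in the Sim1 heterozygous and control libraries. Whether these UMIs came from free RNA or from the glial cells themselves was not tested, nor how far free RNA enters the gates.

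Over all neuronal cells, the receptors differed widely in how many molecules were caught. Ntrk2 gave 877 UMIs in Sim1 heterozygous and 867 in control cells, and Igf1r gave 315 and 448. Cnr1 (140 and 147), Npy1r (129 and 139), Insr (78 and 100), Gpr83 (156 and 48) and Htr2c (74 and 57) followed. Mc4r was sparse, with 16 and 34 UMIs. Lepr had 13 UMIs in the Sim1 heterozygous and 3 in the control library, and Glp1r had 2 and 1, so neither can be placed in any gate with confidence. Most positive cells held a single UMI even of Ntrk2, the receptor found most often: 412 of 597 Ntrk2-positive Sim1 heterozygous cells and 519 of 669 control ones, while 185 Sim1 heterozygous and 150 control cells held more.

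Because deeper cells show more genes, each cell was also thinned by 1 random draw to 857 UMIs, and shallower cells were left out (613 Sim1 heterozygous and 156 control cells). For sparse receptors a single draw is itself a source of error, so the mean over all possible draws at the same depth is given beside it where they part. At this matched depth, Ntrk2 was found in 12.4% of 1805 Sim1 heterozygous and 10.4% of 2598 control neuronal cells. Before thinning these shares were 25.7% and 24.4%. The matched shares of the other receptors were all under 7%: Igf1r was found in 4.38% of Sim1 heterozygous and 6.85% of control cells (5.04% of Sim1 heterozygous and 6.24% of control cells over all draws). Mc4r was found in 0.443% of Sim1 heterozygous and 0.346% of control cells in the draw, but in 0.201% of Sim1 heterozygous and 0.387% of control cells over all draws, so the order in the draw is not read. Lepr was found in 0.222% of Sim1 heterozygous cells and in 0 of the 2598 control cells, which allows a share of up to 0.115%.

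**Figure D1:**
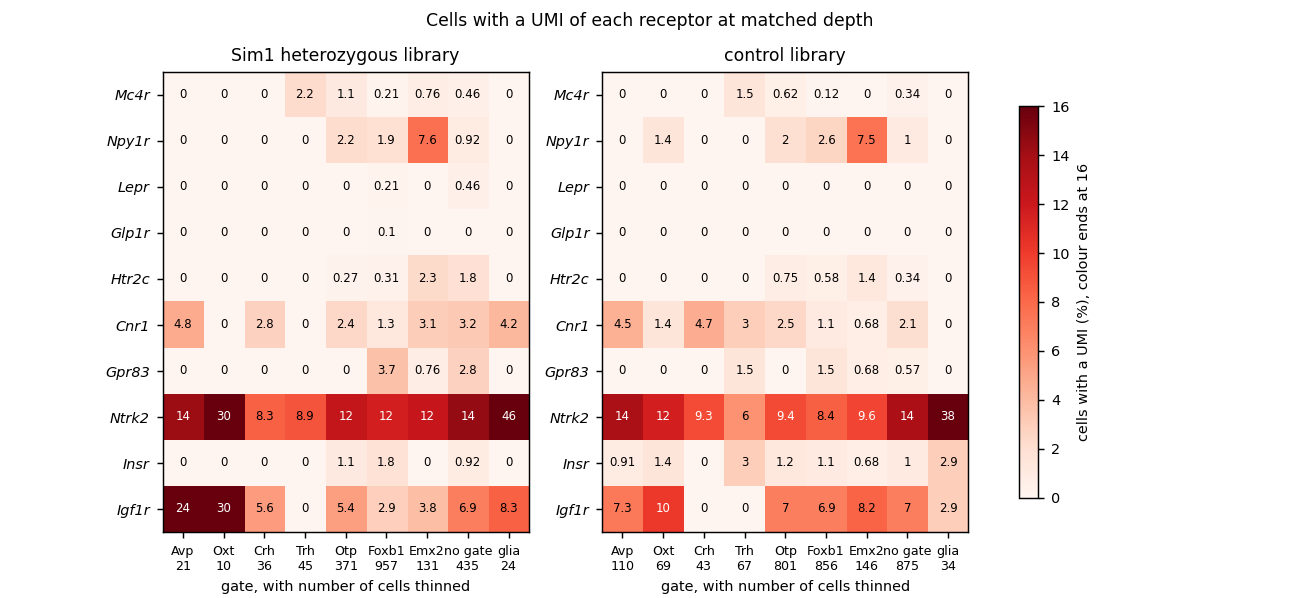
Share of cells with a UMI of each receptor (rows) in each gate (columns, with the number of cells) after thinning to 857 UMIs in 1 draw, in the Sim1 heterozygous library (left) and the control library (right). Ntrk2 was found in every neuronal gate of both libraries, Npy1r stood out in the Emx2 gate (7.63% and 7.53%), and Lepr and Glp1r were at or near 0 throughout. Shares in the Sim1 heterozygous Avp and Oxt gates rest on 21 and 10 cells.

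Mc4r, the receptor through which melanocortins curb feeding, was higher in Otp-gated neurons than in the other neuronal cells of both libraries. The Otp gate held 9 of the 16 Mc4r UMIs in the Sim1 heterozygous library and 18 of the 34 in the control library. That is 6.96 CPM (95% Poisson interval 3.18 to 13.2) in Sim1 heterozygous and 8.12 CPM (4.81 to 12.8) in control Otp-gated cells, so the intervals overlap almost whole. Foxb1-gated cells had 1.45 CPM (4 UMIs) in the Sim1 heterozygous library and 1.52 CPM (3 UMIs) in the control library. Cells of no gate had 3.36 CPM (0.917 to 8.61) from 4 UMIs in the Sim1 heterozygous library and 5.71 CPM (2.95 to 9.98) from 12 UMIs in the control library, intervals that overlap those of the Otp gate.

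Against the other neuronal cells of the same library, Mc4r in the Otp gate was higher by a log2 ratio of 1.95 (interval 0.39 to 3.65) in the Sim1 heterozygous and 1.09 (0.04 to 2.17) in the control library. In the Foxb1 gate its log2 ratio was -1.51 (-3.81 to 0.00) in the Sim1 heterozygous and -1.82 (-4.55 to -0.51) in the control library. Among hormone neurons, the Trh gate had 2 Mc4r UMIs (10.6 CPM, 1.29 to 38.5) in Sim1 heterozygous and 3 (14.2 CPM, 2.94 to 41.6) in control cells. These levels stand above those of the Otp gate, but the log2 ratios against the other neuronal cells, 2.44 (-1.23 to 4.08) in the Sim1 heterozygous and 1.89 (-0.84 to 3.20) in the control library, have intervals that include 0. The Avp gate had none in either library, a limit of 42.6 CPM in the 24 Sim1 heterozygous cells and 9.90 CPM in the 110 control cells. At matched depth Mc4r was found in 4 of 371 Sim1 heterozygous Otp-gated cells (1.08%) and 5 of 801 control ones (0.624%), and over all draws in 0.590% of Sim1 heterozygous and 0.666% of control ones.

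Over all neuronal cells, Mc4r had 3.03 CPM in the Sim1 heterozygous and 5.28 CPM in the control library. The log2 ratio of Sim1 heterozygous over control was -0.76, with an interval (-1.76 to 0.09) that includes 0. Within the Otp gate it was -0.15 (-1.56 to 1.01), and on thinned cells the ratio over all neuronal cells was 0.11 in the 1 draw but -0.79 averaged over all draws. A difference in Mc4r was not detectable at this depth.

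Npy1r, the Y1 receptor of neuropeptide Y, was highest in Emx2-gated neurons in both libraries. It had 95.8 CPM (70.1 to 128) in 151 Sim1 heterozygous cells and 82.3 CPM (57.3 to 114) in 156 control cells, above its level in every other gate, although the interval of the Oxt gate in the Sim1 heterozygous library (0 UMIs in 10 cells) reached 79.7 CPM. Foxb1-gated cells had 27.5 and 31.4 CPM, Otp-gated cells 25.5 and 19.4 CPM, and cells in no gate 13.5 and 11.9 CPM, in the Sim1 heterozygous and control libraries. The Foxb1 and Otp intervals overlap in each library.

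The Emx2 gate exceeded the other neuronal cells in Npy1r by a log2 ratio of 2.48 (1.92 to 3.01) in the Sim1 heterozygous and 2.28 (1.65 to 2.82) in the control library. With at least 2 Emx2 UMIs (57 Sim1 heterozygous and 60 control cells) these ratios were 2.02 in the Sim1 heterozygous and 1.75 in the control library. At matched depth, 10 of 131 Sim1 heterozygous cells (7.63%) and 11 of 146 control cells (7.53%) of the gate held an Npy1r UMI, and the shares over all neuronal cells were 1.66% in the Sim1 heterozygous and 1.96% in the control library. Before thinning, 18.5% of Sim1 heterozygous and 14.7% of control cells of the gate held one. The same Emx2 gate held 35.7% of all Npy1r UMIs in the Sim1 heterozygous library and 25.2% in the control library, with 9.09% and 6.60% of the neuronal UMIs.

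About as many Emx2-gated cells carried Foxb1 UMIs as did not. With both factors, Npy1r was at 111 CPM (75.6 to 156) in 79 Sim1 heterozygous cells and 102 CPM (65.5 to 152) in 83 control cells. With Emx2 alone, it was at 73.4 CPM (40.1 to 123) in Sim1 heterozygous and 57.7 CPM (28.8 to 103) in control cells, intervals that overlap those of the doubly gated cells. Foxb1-gated cells without Emx2 had 17.8 CPM in the Sim1 heterozygous and 21.8 CPM in the control library, so within the Foxb1 gate Npy1r was higher with Emx2. These subdivisions were chosen after the gate values were seen. Between libraries Npy1r was at a log2 ratio of 0.18 (-0.18 to 0.53) over all neuronal cells and 0.21 (-0.45 to 0.90) in the Emx2 gate. Its sign over all neuronal cells changed on thinned cells (-0.29 in the 1 draw, -0.01 averaged over all draws) and when each cell was scaled to its own total (-0.31).

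Htr2c, the serotonin receptor through which serotonergic drugs reduce appetite, was also higher in level in the Emx2 gate, though from few UMIs. It had 29.1 CPM (14 UMIs) in Sim1 heterozygous and 16.5 CPM (7 UMIs) in control cells of that gate. The log2 ratios against the other neuronal cells were 1.30 (0.27 to 2.08) in the Sim1 heterozygous and 1.15 (-0.40 to 2.13) in the control library. The counting interval of the control library thus includes 0, and its 7 UMIs lay in 4 cells. At matched depth over all draws, 3.33% of Sim1 heterozygous and 0.776% of control cells of the gate held an Htr2c UMI. Over all neuronal cells these shares were 1.08% and 0.642%, so by share of cells the control gate stood little above the rest. No Htr2c UMI was found in the Oxt gate of either library, and the Avp gate held 0 in Sim1 heterozygous and 1 in control cells.

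**Figure D2:**
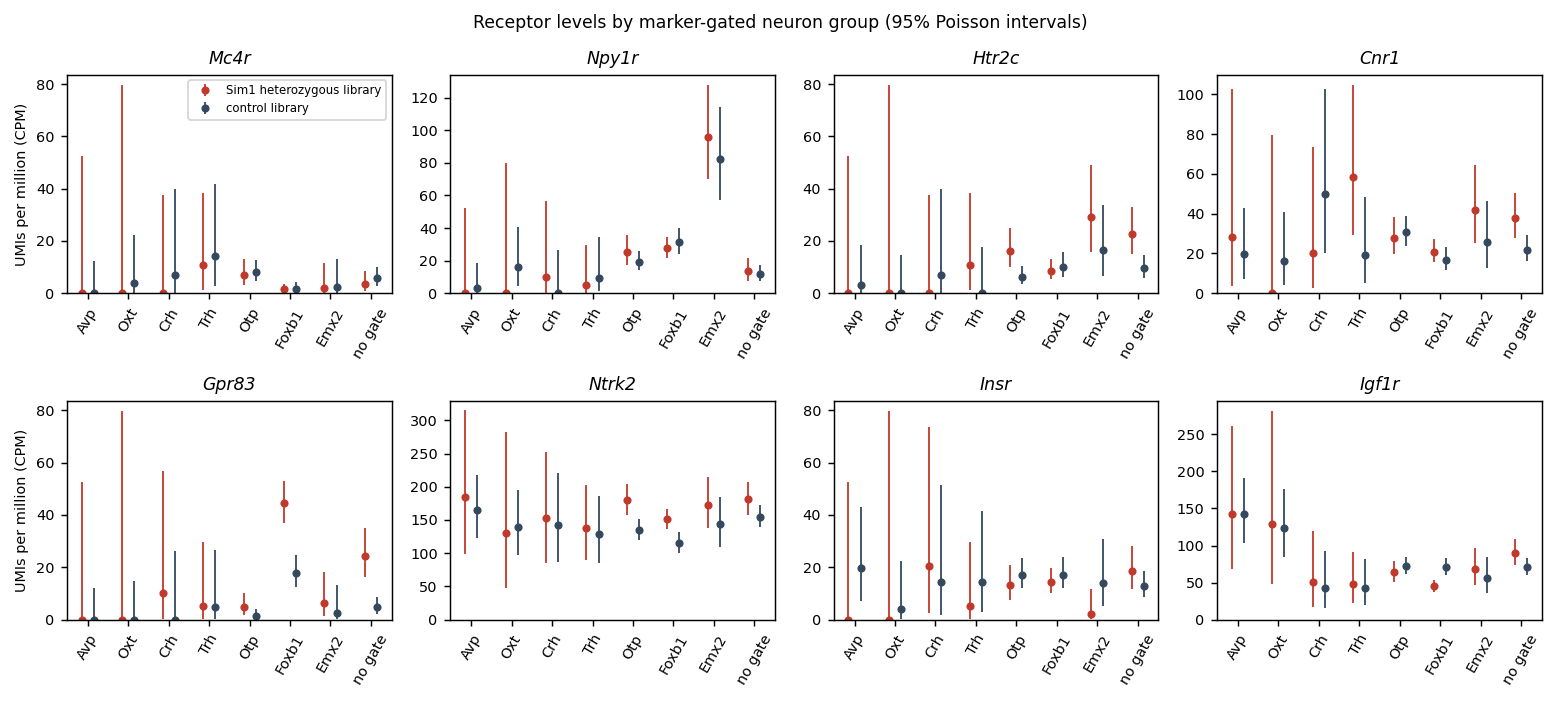
Levels in CPM (y axes, linear and scaled for each gene) of the 8 receptors with at least 30 UMIs, in each gate and in the cells of no gate (x axes). Points are sums over cells and bars are exact 95% Poisson intervals for the Sim1 heterozygous library (left of each pair) and the control library (right of each pair). Npy1r peaked in the Emx2 gate and Gpr83 in the Foxb1 gate of both libraries, and the wide bars of the Avp, Oxt, Crh and Trh gates reflect their few cells.

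Gpr83 was a receptor of Foxb1-gated neurons and was nearly absent from Otp-gated ones. The Foxb1 gate had 44.5 CPM (37.0 to 53.1) from 123 UMIs in the Sim1 heterozygous library and 17.7 CPM (12.3 to 24.6) from 35 UMIs in the control library. The Otp gate had 4.64 CPM (6 UMIs) in Sim1 heterozygous and 1.35 CPM (3 UMIs) in control cells. Otp-gated cells without Foxb1 had 0 Gpr83 UMIs in 379 Sim1 heterozygous cells and 2 in 770 control cells.

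Relative to the other neuronal cells, the Foxb1 gate was higher in Gpr83 by a log2 ratio of 1.73 (1.20 to 2.36) in the Sim1 heterozygous and 2.54 (1.65 to 3.65) in the control library. With at least 2 Foxb1 UMIs the ratios were 1.63 in the Sim1 heterozygous and 2.47 in the control library, with cells of 1 Foxb1 UMI among the other cells. The Otp gate was lower, with log2 ratios of -2.81 (-4.49 to -1.86) in the Sim1 heterozygous and -2.59 (-5.31 to -1.34) in the control library. The 79 Sim1 heterozygous and 83 control cells with both Emx2 and Foxb1 held 0 Gpr83 UMIs, which allows up to 10.4 CPM and 12.8 CPM, and Foxb1-gated cells without Emx2 were at 49.7 CPM in the Sim1 heterozygous and 20.1 CPM in the control library. The cells without Emx2 were 1073 of the 1152 Sim1 heterozygous and 826 of the 909 control cells of the Foxb1 gate. They held 44 of the gate's 76 Npy1r UMIs in the Sim1 heterozygous and 38 of 62 in the control library. Their Npy1r levels, 17.8 CPM in Sim1 heterozygous and 21.8 CPM in control cells, were below the 111 and 102 CPM with both factors.

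**Figure D3:**
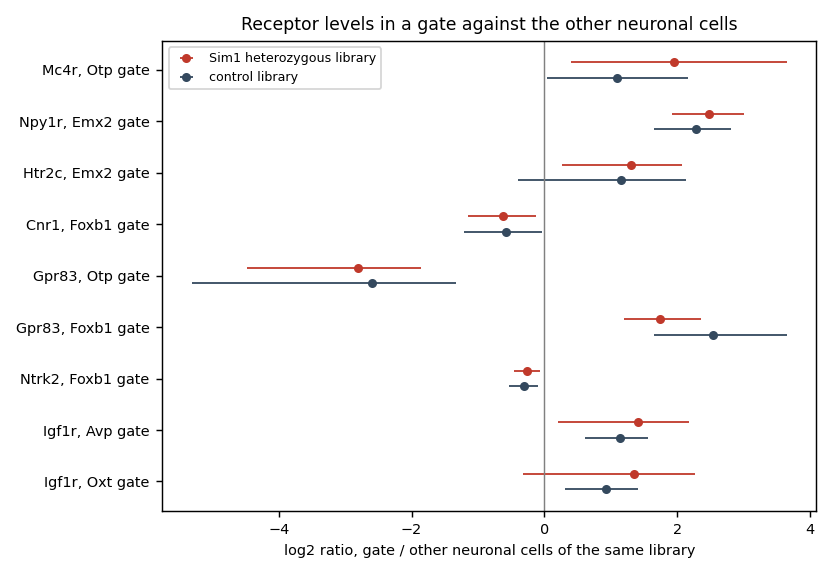
Log2 ratio of CPM in a gate over the other neuronal cells of the same library (x axis) for 9 receptor and gate pairs (rows), with 95% counting intervals. The Sim1 heterozygous library is the upper and the control library the lower point of each pair. The 9 pairs were picked for display. For each of them both libraries lie on the same side of 0, which does not speak for the pairs left out. Htr2c in the Foxb1 gate, not shown, had log2 ratios of -1.16 (-1.96 to -0.46) in the Sim1 heterozygous and 0.32 (-0.57 to 1.11) in the control library. For Gpr83 in the Otp gate both libraries lie below -2.

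Among the receptors with at least 30 UMIs, Gpr83 also had the largest difference between the libraries. It had 29.5 CPM (25.1 to 34.5) over all Sim1 heterozygous and 7.45 CPM (5.50 to 9.88) over all control neuronal cells, a log2 ratio of 1.97 (1.51 to 2.48). The larger Foxb1 gate of the Sim1 heterozygous library moves with this difference. Within the Foxb1 gate the log2 ratio was 1.30 (0.78 to 1.91), and in cells of no gate it was 2.27 (1.28 to 3.56), with 24.4 CPM in Sim1 heterozygous and 4.76 CPM in control cells. With cells split by Otp and Foxb1 and the 4 strata weighted as in the control library, the ratio was 1.56.

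At matched depth Gpr83 was found in 35 of 957 Sim1 heterozygous Foxb1-gated cells (3.66%, Clopper-Pearson 2.56 to 5.05) and 13 of 856 control ones (1.52%, 0.811 to 2.58). Otp-gated cells without Foxb1 held it in 0 of 331 Sim1 heterozygous and 0 of 759 control cells, allowing up to 0.906% and 0.395%. This part was chosen after the gate values were seen, so it is not an independent background. Its median depths before thinning were 2351 and 2179.5 UMIs, against 1866 and 1768 UMIs for the Foxb1 gate. In cells of no gate Gpr83 was found in 12 of 435 Sim1 heterozygous (2.76%, 1.43 to 4.77) and 5 of 875 control cells (0.571%, 0.186 to 1.33). In both libraries these intervals overlap those of the Foxb1 gate. The Sim1 heterozygous library was thus higher in Gpr83 among Foxb1-gated cells by level and by share of cells.

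Rprm, which encodes the cell cycle inhibitor reprimo, was among the 3 genes whose pattern over gates was most like that of Gpr83, and it was used to split the Foxb1 gate further. Foxb1-gated cells with at least 2 Rprm UMIs numbered 564 (24.3% of neuronal cells) in the Sim1 heterozygous and 350 (12.8%) in the control library. Gpr83 was at 62.4 CPM (50.2 to 76.7) in these Sim1 heterozygous cells and 27.8 CPM (17.2 to 42.4) in these control cells. Foxb1-gated cells with fewer Rprm UMIs had 25.0 CPM in the Sim1 heterozygous and 11.5 CPM in the control library.

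The log2 ratio of Sim1 heterozygous over control was 1.12 (0.47 to 1.93) with at least 2 Rprm UMIs and 1.06 (0.18 to 2.14) below that. Gpr83 was thus higher in the Sim1 heterozygous library in both subdivisions. Since Rprm was picked for its likeness to Gpr83 in the same cells, the higher Gpr83 level with Rprm follows from that choice, and in the control library the intervals (17.2 to 42.4 with at least 2 Rprm UMIs and 6.28 to 19.3 below) overlap. Outside the Foxb1 gate, control cells with at least 2 Rprm UMIs held 0 Gpr83 UMIs and those below held 13 (3.53 CPM). In the Sim1 heterozygous library, cells outside the gate with at least 2 Rprm UMIs held 9 Gpr83 UMIs (20.2 CPM, 9.22 to 38.3). Those below held 24 (11.6 CPM, 7.42 to 17.2), and the intervals overlap. Npy1r ran the other way within the Foxb1 gate: 11.8 and 9.25 CPM with at least 2 Rprm UMIs, and 44.7 and 45.1 CPM below, in the Sim1 heterozygous and control libraries. Outside the Foxb1 gate, Mc4r with at least 2 Rprm UMIs was at 15.7 CPM (7 UMIs, 6.30 to 32.3) in Sim1 heterozygous cells. In control cells it was at 14.0 CPM (11 UMIs, 7.01 to 25.1). These levels stand above the 6.96 and 8.12 CPM of the Otp gate, with overlapping intervals.

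**Figure D4:**
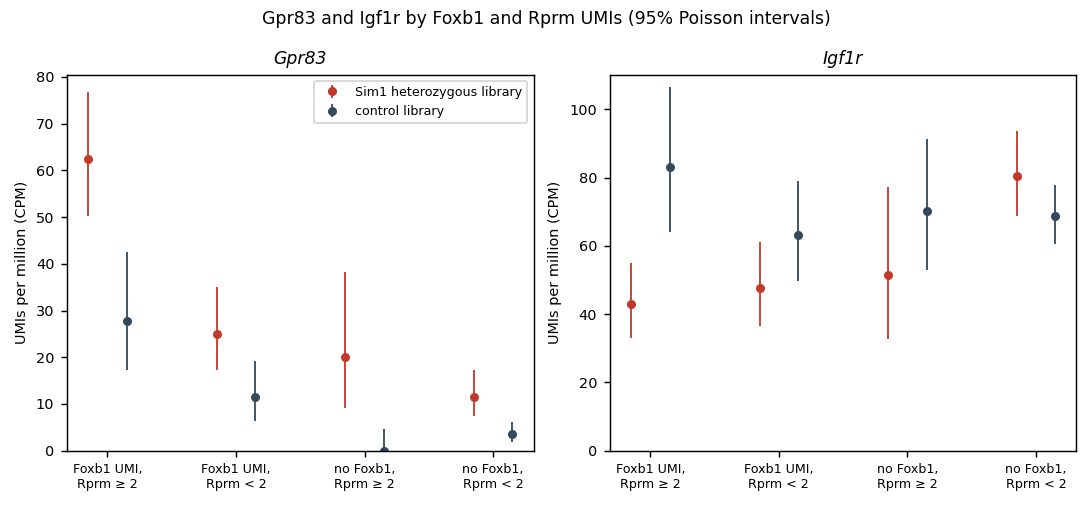
Levels of Gpr83 (left) and Igf1r (right) in CPM (linear y axes from 0) in neuronal cells split by Foxb1 (at least 1 UMI or none) and Rprm (at least 2 UMIs or fewer) along the x axes, with exact 95% Poisson intervals. The Sim1 heterozygous library is the left and the control library the right point of each pair. Gpr83 was higher in the Sim1 heterozygous library in all 4 subdivisions, and Igf1r was lower in the Foxb1-gated cells with at least 2 Rprm UMIs (43.0 and 83.3 CPM).

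Igf1r, the receptor of insulin-like growth factors, was the only 1 of 8 receptors past 1.5-fold upward in the Avp and Oxt gates of both libraries. Of all 14889 genes, 21.8% passed the same rule in the Avp gate and 25.3% in the Oxt gate, so the call does not set Igf1r apart. Igf1r had 142 CPM (10 UMIs) in Sim1 heterozygous and 142 CPM (43 UMIs) in control Avp-gated cells. In the Oxt gate it had 130 CPM (6 UMIs) in Sim1 heterozygous and 124 CPM (31 UMIs) in control cells. The gates share cells: 8 of the 10 Sim1 heterozygous and 50 of the 69 control Oxt-gated cells were also in the Avp gate.

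Against the other neuronal cells, the log2 ratio of Igf1r in the Avp gate was 1.41 (0.21 to 2.18) in the Sim1 heterozygous and 1.13 (0.62 to 1.56) in the control library. In the Oxt gate it was 1.35 (-0.32 to 2.27) in the Sim1 heterozygous and 0.92 (0.30 to 1.41) in the control library. On thinned cells averaged over all draws the Avp ratio was 1.73 in the Sim1 heterozygous and 0.81 in the control library, and 11.5% of Sim1 heterozygous and 9.98% of control cells of the gate held an Igf1r UMI. In the 1 draw the ratios were 2.67 in the Sim1 heterozygous and 0.13 in the control library, so a single draw is not enough for so small a gate. The Crh and Trh gates, with 5 to 9 Igf1r UMIs each, were at 42.7 to 51.0 CPM, and their intervals overlapped that of the Avp gate in the Sim1 heterozygous but not in the control library.

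Foxb1-gated cells had less Igf1r in the Sim1 heterozygous library, with 45.2 CPM (37.6 to 53.9) against 70.9 CPM (59.6 to 83.6) in the control library. The log2 ratio was -0.65 (-1.01 to -0.29), and at matched depth Igf1r was found in 2.93% of 957 Sim1 heterozygous and 6.89% of 856 control cells of the gate. Averaged over all possible draws, these shares were 3.67% and 6.16%. In Otp-gated cells the levels were 64.2 CPM in the Sim1 heterozygous and 72.2 CPM in the control library, with a log2 ratio of -0.16 (-0.57 to 0.22).

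In cells of no gate, Igf1r stood at 90.0 CPM in the Sim1 heterozygous and 71.4 CPM in the control library (0.34, -0.04 to 0.70), while the matched shares were level at 6.90% and 6.97%. Whether the Foxb1 gate and the cells of no gate differ in this ratio was not tested. Over all neuronal cells the ratio was -0.22 (-0.43 to -0.01). On thinned cells it was -0.67 in the 1 draw and -0.36 averaged over all draws. With at least 2 Rprm UMIs in the Foxb1 gate it was -0.95 (-1.48 to -0.43), and below that -0.40 (-0.91 to 0.09).

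Ntrk2, which encodes the BDNF receptor TrkB, was spread over all gates. Its levels ran between 130 and 185 CPM over the Sim1 heterozygous gates and between 115 and 165 CPM over the control gates. Neighbouring gates mostly had overlapping intervals. Foxb1-gated cells were slightly below the other neuronal cells in both libraries, with log2 ratios of -0.27 (-0.46 to -0.07) in the Sim1 heterozygous and -0.31 (-0.53 to -0.09) in the control library.

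Glia-gated cells had far more Ntrk2, with 889 CPM (648 to 1189) in 47 Sim1 heterozygous and 623 CPM (414 to 901) in 34 control cells. At matched depth 45.8% of 24 Sim1 heterozygous and 38.2% of 34 control glial cells held an Ntrk2 UMI in the 1 draw. Over all draws these shares were 56.2% and 38.5%. The same glial cells held no UMI of Mc4r, Npy1r, Lepr, Gpr83, Glp1r or Htr2c, but so few cells allow shares of up to 12.5% in the Sim1 heterozygous and 8.82% in the control library.

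Between the libraries, Ntrk2 was slightly higher in the Sim1 heterozygous one, with 166 CPM against 135 CPM in the control library and a log2 ratio of 0.30 (0.17 to 0.44). The ratio was 0.41 (0.16 to 0.66) in the Otp gate and 0.39 (0.15 to 0.63) in the Foxb1 gate. None of these reached 1.5-fold. Glia-gated cells were 47 of the 2454 kept Sim1 heterozygous and 34 of the 2806 kept control cells. Neuronal cells with at least 2 glial markers numbered 8 in the Sim1 heterozygous and 9 in the control library. Whether glial RNA takes part in the Ntrk2 difference was not tested.

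Cnr1, the cannabinoid receptor CB1, was lower in Foxb1-gated cells than in the other neuronal cells of both libraries. It had 21.0 CPM in Sim1 heterozygous and 16.7 CPM in control Foxb1-gated cells, with log2 ratios against the other cells of -0.63 (-1.14 to -0.13) in the Sim1 heterozygous and -0.58 (-1.22 to -0.04) in the control library, just short of 1.5-fold in the control library. In cells of no gate it was higher in the Sim1 heterozygous library, with 37.8 CPM against 21.9 CPM in the control library (0.79, 0.16 to 1.41). The Trh gate held 11 Cnr1 UMIs (58.6 CPM) in the Sim1 heterozygous and 4 (19.0 CPM) in the control library, but the intervals overlap (29.2 to 105 in the Sim1 heterozygous and 5.17 to 48.6 in the control library). In the 1 draw it was found in 0 of 45 Sim1 heterozygous and 2 of 67 control cells of the gate, and over all draws in 4.80% of Sim1 heterozygous and 1.42% of control ones. Over all neuronal cells Cnr1 had 26.5 CPM in the Sim1 heterozygous and 22.8 CPM in the control library.

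Insr, the insulin receptor, followed no gate in both libraries. Levels in the Otp gate, the Foxb1 gate and the cells of no gate lay between 13.1 and 18.5 CPM in the Sim1 heterozygous library and between 12.9 and 17.2 CPM in the control library, with overlapping intervals. The Emx2 gate held 1 UMI in Sim1 heterozygous and 6 in control cells. Its log2 ratios against the other neuronal cells were -1.96 (-8.27 to -0.42) in the Sim1 heterozygous and 0.06 (-1.63 to 1.03) in the control library. Over all neuronal cells Insr had 14.8 CPM in Sim1 heterozygous and 15.5 CPM in control cells, a log2 ratio of -0.07 (-0.52 to 0.37).

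Htr2c was higher in the Sim1 heterozygous library over all neuronal cells, with 14.0 CPM against 8.85 CPM in the control library and a log2 ratio of 0.66 (0.14 to 1.19). The Foxb1 gate had 8.68 CPM in Sim1 heterozygous and 10.1 CPM in control cells, a ratio of -0.23 (-1.14 to 0.71). In cells of no gate it had 22.7 CPM in the Sim1 heterozygous and 9.52 CPM in the control library, with a ratio of 1.24 (0.37 to 2.17), and at matched depth it was found in 8 of 435 Sim1 heterozygous (1.84%) and 3 of 875 control cells (0.343%), and over all draws in 2.07% of Sim1 heterozygous and 0.728% of control cells.

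In the Otp gate Htr2c had 16.2 CPM in the Sim1 heterozygous and 6.31 CPM in the control library (1.33, 0.32 to 2.45). At matched depth it was found there in 1.30% of Sim1 heterozygous and 0.597% of control cells over all draws, although the 1 draw gave 1 of 371 Sim1 heterozygous and 6 of 801 control cells. On thinned cells the ratio over all neuronal cells was 0.80 averaged over all draws and 0.36, below 1.5-fold, in the 1 draw.

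Leptin receptor transcripts were too rare for a comparison. Of the 13 Lepr UMIs in the Sim1 heterozygous library, 6 were in Foxb1-gated cells, 5 in cells of no gate and 1 in Otp-gated cells. Of the 3 in the control library, 1 was in a Foxb1-gated cell and 2 in cells of no gate. None was found in the Avp, Oxt, Crh or Trh gates of either library. The ratio of the CPM values, 2.46 over 0.466, had an interval on the log2 scale of 0.54 to 4.85 around 2.09, from under 30 UMIs. Glp1r, the receptor of the incretin GLP-1, was found in 2 Sim1 heterozygous and 1 control cells, all of them Foxb1-gated.

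**Figure D5:**
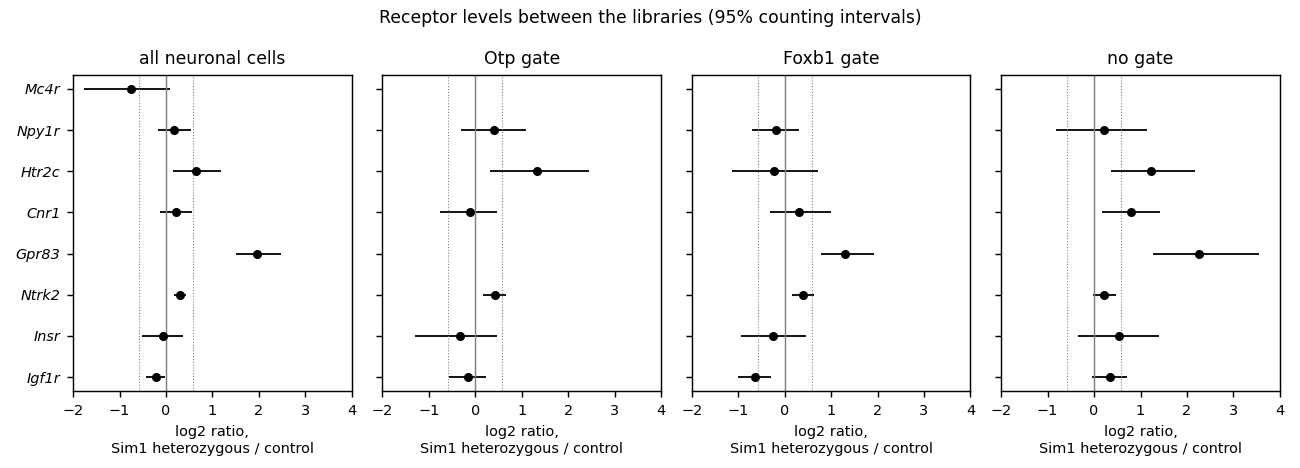
Log2 ratio of CPM, Sim1 heterozygous over control (x axes), for receptors with 30 UMIs or more, libraries added up, in the cells shown, with 95% counting intervals. Dotted lines mark a ratio of 1.5-fold either way. Gpr83 lay above 1.5-fold with its whole interval in all 3 panels that show it, and Igf1r lay below 0 with its whole interval in the Foxb1 gate.

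By 1.5-fold or more, 2 of the 8 receptors with at least 30 UMIs were higher in Sim1 heterozygous neuronal cells (Gpr83 and Htr2c). By the same count 1 was lower, Mc4r, with an interval of -1.76 to 0.09 that includes 0. Of all 14426 genes tested the same way, 7.92% were higher and 9.19% lower. The receptors' median log2 ratio was 0.20, and that of all genes was 0.04. Within the Otp gate, 1 of 6 receptors was higher (Htr2c; 8.99% of all genes) and none was lower (8.24%).

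Within the Foxb1 gate, 1 of 7 was higher (Gpr83; 8.03%) and 1 lower (Igf1r; 8%). In the Emx2 gate 1 of 4 was higher, Cnr1 at 0.63 with an interval of -0.44 to 1.90 (8.85% of all genes), and none was lower (8.22%). In cells of no gate 3 of 7 were higher (Cnr1, Gpr83 and Htr2c; 10.5%) and none was lower (7.6%). With so few receptors, these counts describe the list and do not set it apart from other genes.

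A receptor was counted as marking a gate when it differed from the other neuronal cells by at least 1.5-fold in the same direction in both libraries. In the Otp gate 1 of 8 was higher (Mc4r; 2.94% of 14889 genes) and 1 lower (Gpr83; 3.52%). In the Foxb1 gate 1 was higher (Gpr83; 4.55%) and 1 lower (Mc4r; 4.04%). In the Emx2 gate 2 were higher (Npy1r and Htr2c; 7.86%) and 1 lower (Gpr83; 2.24%), the last from 3 Sim1 heterozygous UMIs and 1 control UMI.

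The small hormone gates gave calls that rest on few molecules, since a pseudocount of 1 UMI weighs heavily there. Igf1r was the 1 receptor called higher in the Avp gate (21.8% of all genes) and in the Oxt gate (25.3%), and Mc4r was the 1 called higher in the Crh gate (30.2%, from 0 and 1 UMIs) and in the Trh gate (19.4%). Npy1r and Gpr83 were called lower in the Avp gate (5.57%) and Npy1r in the Trh gate (2.45%), with at most 2 UMIs in any of these gates. None was called lower in the Oxt gate (3.91%) or the Crh gate (2.18%). In the cells of no gate, Npy1r was lower (1.5%) and none was higher (2.6%).

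How often a pair of receptors shared a cell moved with depth. Ntrk2 and Igf1r met most often: unthinned, in 89 Sim1 heterozygous cells, against 67.7 for independent genes, and in 109 control cells, against 91.1. After thinning in 1 draw Ntrk2 and Igf1r met in 13 Sim1 heterozygous cells, against 9.80, and in 14 control cells, against 18.4. Unthinned, Npy1r and Ntrk2 were found together in 45 Sim1 heterozygous cells, against 23.9 for independent genes, and in 38 control cells, against 26.1. After thinning in 1 draw they met in 5 cells of each library, with 3.72 and 5.28 for independent genes. Gpr83 and Cnr1 met in 2 Sim1 heterozygous cells, against 6.11 for independent genes, and in 0 control cells, against 2.12, both unthinned. Npy1r and Gpr83 met in 4 Sim1 heterozygous cells, against 4.77 for independent genes, and in 0 control cells, against 1.72.

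For the 5 receptors with at least 200 UMIs, the genes with the most similar pattern were sought over the 7 gates and the cells of no gate in both libraries. Likeness was Pearson's r of log2(CPM + 10) over these 16 points, which share cells and libraries, among 8073 genes. Npy1r was most like Sclt1 (0.90), Ube2d-ps (0.89) and Emx2 itself (0.89), a gene that defines one of the gates. Gpr83 was most like Cox6a2 (0.90), a muscle-type subunit of cytochrome c oxidase, Rprm (0.89) and Tmem132c (0.88).

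Igf1r was most like Cluap1 (0.91), Btbd3 and Caprin2 (both 0.88), and for Cnr1 Aldh5a1 (0.89) and Pigk (0.87) were among the 3 most similar genes. Ntrk2, which varied least over the gates, reached only 0.76 (Pcdh8), 0.74 (Lmbrd1) and 0.72 (BC029722). Among the 5 receptors themselves, r ran from -0.45 (Cnr1 and Igf1r) to 0.37 (Ntrk2 and Cnr1). With this many genes searched over so few points, high values arise easily, and these are descriptions only.

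The receptors belong to pathways for which a list of 72 other genes was drawn up: ligands, other receptors, signalling genes and the endocannabinoid system. Of these, 69 were in the table and 53 had at least 30 UMIs. In the Sim1 heterozygous neuronal cells, 6 were higher by at least 1.5-fold with an interval that leaves out equality (6.01% of all genes) and 1 was lower (7.4%). The median log2 ratio of the 53 was 0.18.

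Among 7 ligands tested, only Cartpt, which encodes the satiety peptide CART, was higher, with 230 CPM in Sim1 heterozygous and 145 CPM in control cells (0.67, 0.55 to 0.79). In the Foxb1 gate Cartpt had 351 CPM in Sim1 heterozygous and 238 CPM in control cells. Bdnf, the ligand of TrkB, had 157 CPM in the Sim1 heterozygous and 107 CPM in the control library (0.55, 0.40 to 0.70), just under 1.5-fold. Pcsk1n, which encodes the proSAAS precursor, was at -0.18 (-0.23 to -0.13), and Nucb2, the precursor of nesfatin, at 0.19 (0.05 to 0.32).

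The other ligands were sparser. Npy, the ligand of Npy1r, was at 0.46 (0.23 to 0.68), with 65.5 CPM in Sim1 heterozygous and 47.7 CPM in control cells. Agrp and Pomc, which mark arcuate feeding neurons and encode the ligands of Mc4r, had 11 and 30 UMIs in the Sim1 heterozygous and 4 and 39 in the control library.

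Of 19 other receptors tested, 4 were higher and 1 lower by that rule. Npy2r, a presynaptic receptor of neuropeptide Y, was at 0.84 (0.21 to 1.52), and its Otp-gate levels were 24.0 CPM in Sim1 heterozygous and 7.22 CPM in control cells. Mchr1, the receptor of melanin-concentrating hormone, was at 0.99 (0.40 to 1.61), with 14.1 CPM in Sim1 heterozygous and 4.05 CPM in control cells of the Foxb1 gate. Cckbr, a cholecystokinin receptor, was at 0.67 (0.07 to 1.31), and Ngfr, the low-affinity neurotrophin receptor, at 1.39 (0.43 to 2.57) from 27 Sim1 heterozygous and 12 control UMIs.

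Ramp1, a receptor partner of the calcitonin family, was the gene that was lower, at -0.71 (-1.51 to -0.01). It was concentrated in glia-gated cells, with 869 CPM in the Sim1 heterozygous and 802 CPM in the control library, and whether glial RNA takes part in its neuronal counts was not tested. The receptors of the list with the most UMIs otherwise lay within 1.5-fold: Ntrk3, the receptor of neurotrophin-3, at -0.25 (-0.43 to -0.07), Ramp2 at 0.30 (-0.08 to 0.67), Calcr, the calcitonin receptor, at -0.08 (-0.53 to 0.34) and Htr1b, a serotonin receptor, at 0.05 (-0.40 to 0.48).

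Of 20 signalling genes tested, 1 was higher: Adcy3, an adenylyl cyclase, at 0.59 (0.21 to 0.97), with 24.8 CPM in Sim1 heterozygous and 16.5 CPM in control cells. Gnas, whose stimulatory G protein carries the signal of Mc4r, was at -0.34 (-0.37 to -0.31). Pik3r1, the regulatory subunit of the kinase downstream of insulin receptors, was at 0.26 (0.14 to 0.38) and Leprot, which shares its start with Lepr, at 0.05 (-0.09 to 0.19). None of the 7 endocannabinoid genes reached 1.5-fold. Cnrip1, which encodes a protein that binds the tail of CB1, was at -0.14 (-0.22 to -0.05), and Mgll, Faah and Abhd6, which break down endocannabinoids, were between 0.11 and 0.27.

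Most markers of other cells were low in the neuronal cells of both libraries. Control neuronal cells, however, carried 2214 UMIs of the 3 pituitary markers in the table (344 CPM) and Sim1 heterozygous ones 2. The arcuate markers Agrp, Pomc and Npy summed to 73.3 CPM in the Sim1 heterozygous and 54.4 CPM in the control library, most of it Npy. Gh, the growth hormone gene, gave 2182 of these control UMIs and was at 0 in the Sim1 heterozygous library. In the control library it was found in 932 of 2739 neuronal cells (34.0%) and in 13 of 34 glial cells (38.2%). Where these Gh UMIs came from was not tested. Oligodendrocyte-lineage markers summed to 28.8 CPM in the Sim1 heterozygous and 28.0 CPM in the control library, and microglial, endothelial, mural, fibroblast, ependymal and choroid plexus markers to at most 4.73 CPM in either library. The part of these cells or of free RNA in the receptor levels was not tested.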

How the data were processed

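UMI counts per gene and barcode were used as the authors deposited them, per the file headers as whole counts with 1 table per library and a merged table that held identical counts. Upstream tools are credited per the submitters' processing notes, which name STAR 2.6.0b, Picard, bcl2fastq, Seurat 3 and build mm10 without roles. The sources used here do not state the counter, its strand setting, the annotation or the cell-calling rule. Nothing was done about doublets beyond 1 alternative without the deepest cells, so doublets remain.

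Computation used numpy 2.4.6, pandas 2.3.3, scipy 1.17.1 and matplotlib 3.10.9 in Python 3.11.15. Neuronal cells lacked a glial gate (at least 3 of 8 glial genes and more glial than neuronal UMIs). The neuronal cells held 5282262 Sim1 heterozygous and 6439188 control UMIs. Levels are summed UMIs per 1000000 with exact Poisson intervals. Ratios used a pseudocount of 1 UMI and conditional exact binomial intervals, and shares used Clopper-Pearson intervals, all at 95%. These cover counting error only, since UMIs of a cell are not independent molecules of separate animals. Where nothing was counted, 3 UMIs or 3 cells served as the limit. Thinning used 1 seeded draw, and the exact mean over all draws was computed beside it. The computation was tested on simulated data. Named genes were the 10 receptors, listed genes past 1.5-fold with an interval that leaves out equality, the 4 listed genes with the most UMIs per role, and the 3 most similar genes per receptor, of which a few are not reported here. Npy, Agrp, Pomc and the splits by Emx2, Foxb1, Otp and Rprm were chosen after values were seen. The receptors, gates and lists were chosen with earlier results of these data known.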

Additional observations from a re-analysis of the deposited data

Results flagged for a closer look

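Igf1r was found outside the cells that the comparisons use. Cells that passed neither the neuronal nor the glial gate held 14 Igf1r UMIs in 88 Sim1 heterozygous cells (244 CPM, 133 to 409) and 12 UMIs in 33 control cells (296 CPM, 153 to 516). Both counts are above the limit of 3 UMIs that a count of 0 allows, and the levels are above those of all neuronal cells, 59.6 CPM in the Sim1 heterozygous and 69.6 CPM in the control library. These cells were shallow, with medians of 590.5 and 921 UMIs, and what they are was not tested.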

How the results depend on the processing

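No paired analysis was possible because each genotype has 1 library, and for the same reason no replicate could be left out. Of the receptors, 1 in place of 2 was higher in the Sim1 heterozygous library on sums of thinned cells and at 2-fold, and this was Gpr83. None was lower (0 in place of 1) with at least 100 UMIs, at 2-fold, or with 4 strata of Otp and Foxb1 weighted as in the control library, an alternative chosen after seeing the data. On thinned cells the log2 ratio of Mc4r was 0.11 in the 1 draw, but -0.79 averaged over all draws, an alternative also chosen after seeing the data. With that average 2 receptors were higher and 0 lower, since Mc4r then had under 30 UMIs. Pairs of receptor and gate counted in both libraries numbered 14. They numbered 32 with cells in exactly 1 gate, 23 on thinned cells and 26 with the average over all draws. With a pseudocount in proportion to the totals, also chosen after seeing the data, they numbered 22. The added pairs lay mostly in the hormone gates, which rest on few cells and UMIs. With cells in exactly 1 gate, the Oxt gate held 1 Sim1 heterozygous and 5 control cells, and the Avp gate 8 and 16. These added pairs are not read as receptors marking a gate, and the share of all genes was not computed for these settings. In the 3 large gates (Otp, Foxb1, Emx2), 7 of 24 pairs were counted, and 6 of them were counted in every setting tried. The exception was Gpr83 in the Emx2 gate. Of 328 values of single receptors under the alternatives, 283 stayed within their counting interval. The sign changed in 7 of the 328 values, for 3 library ratios (Mc4r, Npy1r and Insr), and of these Mc4r alone had been past 1.5-fold. Thinned shares of sparse receptors and of small gates depend on the draw: Igf1r in the Sim1 heterozygous Avp gate was at 23.8%, and at 4.76% with another seed. A receptor was found in 72 of 140 combinations of receptor, gate and library, and in 52 to 99 of them under the alternatives.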
